A study of Mus musculus with 8 samples.

Results

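The kinases, phosphatases and adaptors that carry the first steps of T cell receptor signalling were followed in T29, a cell line from a thymic lymphoma of the mouse that the design text describes as Ikaros-deficient. The set holds the 9 genes Lck, Fyn, Zap70, Lat, Lcp2, Ptprc, Ptpn22, Csk and Plcg1, and a member was measured where the platform annotation gave a probe set that symbol alone. This gave 15 probe sets for 8 of the 9 genes, out of 18193 genes tested. No probe set was listed for Lck, which is not analysed here. Fyn, Ptprc and Lcp2 each had 2 probe sets, Zap70 and Plcg1 had 3, and Lat, Ptpn22 and Csk had 1, and the brightest over the 8 arrays stood for its gene.

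All cells carried the retroviral vector MigR1, either empty (MigR1) or with Ik1ER, an inducible Ikaros protein that 4-hydroxytamoxifen (4OHT) switches on. Cells of each line received 4OHT at 100 nM or ethanol, the solvent, for 24 h, and each of the 4 groups was measured on 2 Affymetrix arrays from total RNA. Values are log2 expression made with RMA, a method that sets the arrays to a common distribution. The labels give neither separate cultures for the 2 arrays of a group nor whether a line was 1 clone or a pool. The p-values therefore rest on a spread between arrays that may be technical, and the small number of arrays limits the precision.

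When the T cell receptor binds its ligand, the Src family kinases Lck and Fyn phosphorylate the CD3 and zeta chains, and the kinase ZAP-70, encoded by Zap70, docks there. ZAP-70 then phosphorylates the adaptors LAT and SLP-76, encoded by Lat and Lcp2, which assemble a complex that activates phospholipase C gamma 1, encoded by Plcg1. The phosphatase CD45, encoded by Ptprc, removes an inhibitory phosphate from the Src family kinases that the kinase encoded by Csk adds, and the phosphatase encoded by Ptpn22 acts together with Csk as a brake.

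The transcript of the transduced Ikaros was checked first. The probe set of Ikzf1, the Ikaros gene, that differed between the lines read 2.64 higher on the log2 scale in Ik1ER than in MigR1 cells (4 arrays each, two-sided exact permutation p = 0.0286, which is the smallest possible), while the other differed by -0.07 (exact permutation p = 0.514). In MigR1 cells the other probe set read 10.28 in ethanol and in 4OHT, above the 8.13 and 8.34 of the first. The vector line thus held Ikzf1 signal without Ik1ER. The 4 arrays of a line join its ethanol and 4OHT arrays, so these p-values measure no spread between separately transduced lines. Of 13 T lineage markers, 12 had a mean over the 8 arrays above 5.27, the highest mean among the 27 Bacillus control probe sets. Only Cd5 (mean 4.89) did not. Cd2 (mean 5.36) passed only through Ik1ER cells with 4OHT (6.06). In the other groups its means were 4.915 to 5.268, below the 5.272 of this control. None of 3 NK cell and 4 stromal markers had a mean above this control, while 2 of 6 B cell and 3 of 6 myeloid markers had. Replicate 2 of both Ik1ER groups stood apart from the rest, with a difference between the 3' and 5' probe sets of the transferrin receptor control, a gauge of RNA quality, of 1.66 and 1.91 on the log2 scale against 1.15 to 1.39 on the other 6 arrays. The differences of the 8 members and the calls of the other named genes in Ik1ER cells are therefore also given without both of these arrays, each remaining Ik1ER array then being assumed to vary like the MigR1 groups.

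RefSeq promoters (build GRCm38.p6, 250 bases before to 50 after a start) were found for all 9 genes. They were searched on both strands for TGGGAA, a core of the sequence that Ikaros binds, which also holds GGAA, the core of the sites of ETS factors. It was present in 6 of the 15 member promoters (40%), of Lck, Zap70, Lat, Lcp2 and Ptpn22, against 25.6% of all 32851 promoters of the table. The promoters of the 2 genes with a called probe set in Ik1ER cells, Ptprc (chr1:138175256-138175555, minus strand, the first of 2 that overlap) and Fyn (chr10:39369549-39369848, plus strand), are shown with those of the adaptor genes Lat (chr7:126369519-126369818, minus strand) and Lcp2 (chr11:34046678-34046977, plus strand), 5′ to 3′ as the table gives them. Capitals mark TGGGAA or its reverse complement TTCCCA.
Ptprc: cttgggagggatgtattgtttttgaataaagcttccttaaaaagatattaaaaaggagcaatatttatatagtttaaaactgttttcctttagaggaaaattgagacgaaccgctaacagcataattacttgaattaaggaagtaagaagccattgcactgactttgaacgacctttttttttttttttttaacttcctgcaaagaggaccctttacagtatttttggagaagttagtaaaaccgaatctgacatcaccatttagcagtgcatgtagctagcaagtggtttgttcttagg
Fyn: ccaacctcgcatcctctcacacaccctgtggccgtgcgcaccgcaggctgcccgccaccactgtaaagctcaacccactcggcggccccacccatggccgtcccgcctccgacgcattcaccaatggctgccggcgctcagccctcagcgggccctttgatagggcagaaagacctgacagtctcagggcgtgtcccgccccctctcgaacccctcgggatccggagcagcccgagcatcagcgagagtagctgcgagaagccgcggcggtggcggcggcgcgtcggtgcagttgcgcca
Lat: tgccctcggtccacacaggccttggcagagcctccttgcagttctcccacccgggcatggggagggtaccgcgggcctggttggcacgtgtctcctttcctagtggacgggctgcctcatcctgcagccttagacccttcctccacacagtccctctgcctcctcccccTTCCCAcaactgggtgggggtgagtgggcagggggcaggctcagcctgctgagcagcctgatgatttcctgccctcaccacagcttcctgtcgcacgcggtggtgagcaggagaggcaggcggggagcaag
Lcp2: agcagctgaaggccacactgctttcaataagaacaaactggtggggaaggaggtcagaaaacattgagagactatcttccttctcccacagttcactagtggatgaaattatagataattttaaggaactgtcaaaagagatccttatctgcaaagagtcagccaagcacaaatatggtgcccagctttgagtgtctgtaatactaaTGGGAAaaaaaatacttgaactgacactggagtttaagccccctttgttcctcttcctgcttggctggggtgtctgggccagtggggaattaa
The windows of Ptprc and Fyn thus hold no match, that of Lat holds 1 on the reverse strand, and that of Lcp2 holds 1 on the strand shown. A match is a run of letters and no evidence of binding, which was not measured here.

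The main comparison sets 4OHT against ethanol in the Ik1ER line, that is, induced against uninduced Ikaros. Ptprc, which encodes CD45, rose 1.33-fold, and it was the 1 member called among the 8 measured (limma, adjusted p under 0.05). In the same comparison 5.35% of all genes were called, 2.84% as higher and 2.51% as lower. At an unadjusted p under 0.05 the members were Fyn, Lat, Lcp2 and Ptprc, 4 of 8, against 17.6% of all genes. A second probe set of Fyn, tested on its own, fell 1.43-fold. The adaptor genes Lat and Lcp2 and the phosphatase gene Ptpn22 read higher by 0.18 to 0.24 on the log2 scale without being called, and Zap70, Csk and Plcg1 read within 0.04 of their ethanol level. Over the 8 members the median difference was 0.09, against -0.00386 over all genes tested, and 5 of the 8 lay above 0, against 49% of all genes. In 4 members both 4OHT arrays read above both ethanol arrays and in 2 both read below, which was so for 21.1% and 21.6% of all genes. Of the 15 probe sets 2 were called, against 2.5% of all 45037 probe sets.

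**Figure D1:**
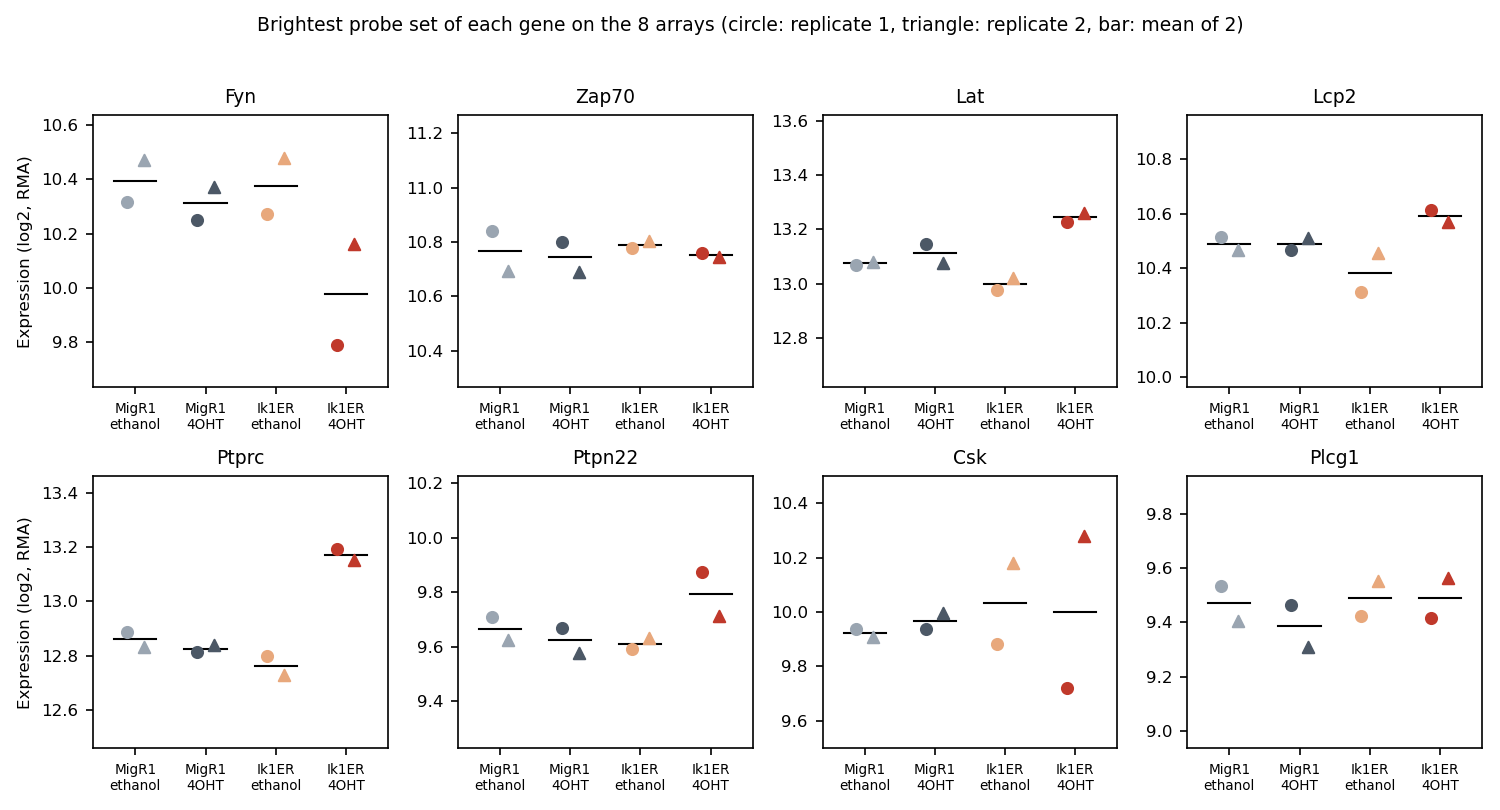
Expression (log2, RMA) of the brightest probe set of each of the 8 genes in the 4 groups, with a circle for replicate 1, a triangle for replicate 2 and a bar at the mean of the 2 arrays; every panel spans 1 log2 unit. The 2 Ik1ER 4OHT arrays of Ptprc read 13.19 and 13.15, above all other arrays, while the 2 arrays of Csk in the same group read 9.72 and 10.28 and span those of every other group.

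Ptprc encodes the most abundant phosphatase of the T cell surface. Its brightest probe set read 12.80 and 12.73 in Ik1ER cells in ethanol and 13.19 and 13.15 in 4OHT. In MigR1 cells it read 12.89 and 12.83 in ethanol and 12.81 and 12.84 in 4OHT. The 2 Ik1ER 4OHT arrays were thus the highest of the 8, with no overlap with any other group, and the other 6 lay within a narrow range. The means in Ik1ER cells were 12.76 ± 0.05 in ethanol and 13.17 ± 0.03 in 4OHT (SD, n = 2), a difference of 0.41 (SE 0.07, limma, adjusted p = 0.0150).

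The dim second probe set of Ptprc had a mean of 4.52, below the highest Bacillus control, which limits what its difference can show. It read 4.30 and 4.21 in Ik1ER cells in ethanol and 4.77 and 4.84 in 4OHT, against 4.34 to 4.69 in MigR1 cells. Its groups in Ik1ER cells did not overlap, but the difference of 0.55 (SE 0.12, adjusted p = 0.0670 over 45037 probe sets) was not called. On that scale the brightest probe set of Ptprc kept its call (adjusted p = 0.0362).

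The call of Ptprc depended on 3 of the 4 Ik1ER arrays. It was lost without Ik1ER 4OHT replicate 1 (adjusted p = 0.0569), without Ik1ER ethanol replicate 1 (0.0590) and without Ik1ER ethanol replicate 2 (0.102), where limma gave differences of 0.39, 0.44 and 0.37. It was lost as well without both Ik1ER replicate 2 arrays (0.39, adjusted p = 0.114) and with the 4 Ik1ER arrays alone (adjusted p = 0.0907). Since CD45 is made by all white blood cells, the markers of other such cells are given beside it. Of 6 myeloid markers 3 were called in Ik1ER cells with 4OHT, Cd14 (-1.26), Lyz2 (-0.60) and Itgam (0.54). The mean of Itgam, 4.59, lay below the highest Bacillus control. Csf1r, the remaining marker above that control, differed by -0.03 and was not called. The summed signal of the 6 markers on the linear scale was 318 and 338 in ethanol and 244 and 257 in 4OHT, against 313 to 340 in MigR1 cells. None of 6 B cell, 3 NK cell and 4 stromal markers was called, and the summed signal of the B cell markers was 170 to 186 in ethanol and 178 to 193 in 4OHT. Of the 13 T lineage markers 8 were called, Cd3d, Cd3e, Cd3g and Ptcra as lower and Cd4, Cd8a, Cd8b1 and Cd2 as higher. The mean of Cd2 lay above the highest Bacillus control only in Ik1ER cells with 4OHT. The 13 summed to 38858 and 40177 in ethanol and 34434 and 38400 in 4OHT, a sum that the brightest markers dominate. The part of these markers in the rise of Ptprc was not tested, and in a bulk sample fewer cells of a type and less RNA per cell cannot be told apart.

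Of the kinases, Fyn was measured by 2 bright probe sets that both read lowest in Ik1ER cells with 4OHT. The brightest read 10.27 and 10.48 in Ik1ER cells in ethanol and 9.79 and 10.16 in 4OHT, and 10.32, 10.47, 10.25 and 10.37 in MigR1 cells. All 6 other arrays lay above the 2 Ik1ER 4OHT arrays, which differed from each other by nearly as much as the groups did. In every group replicate 2 read above replicate 1. The difference was -0.40 (SE 0.13, limma, adjusted p = 0.160) and was not called. With the replicate number added to the fit it was called, as given in the last section. The labels do not say that these numbers pair arrays.

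The second probe set of Fyn (mean 9.48) varied less between the arrays of each group. It read 9.64 and 9.71 in Ik1ER cells in ethanol and 9.14 and 9.18 in 4OHT, and from 9.49 to 9.60 in MigR1 cells. The 2 Ik1ER 4OHT arrays lay below the other 6, which spanned less than the gap to them. Tested on its own this probe set fell by 0.51 (SE 0.08, limma, adjusted p = 0.0190 over 45037 probe sets), and it was the probe set of smallest p among the 15.

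The Fyn call also depended on single arrays. The second probe set lost its call without Ik1ER 4OHT replicate 1 (adjusted p = 0.0584), Ik1ER ethanol replicate 1 (0.0869) or Ik1ER ethanol replicate 2 (0.135), and without both Ik1ER replicate 2 arrays (-0.49, adjusted p = 0.164). With the mean of both probe sets standing for the gene Fyn was called (-0.46, limma, adjusted p = 0.0275), as was the brightest one without Ik1ER 4OHT replicate 2 (-0.58, adjusted p = 0.0483). Without Ik1ER 4OHT replicate 1 the difference of the brightest was -0.21 (adjusted p = 0.394) and without Ik1ER ethanol replicate 2 it was -0.29 (adjusted p = 0.496). Without both Ik1ER replicate 2 arrays it was -0.48 (adjusted p = 0.142).

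**Figure D2:**
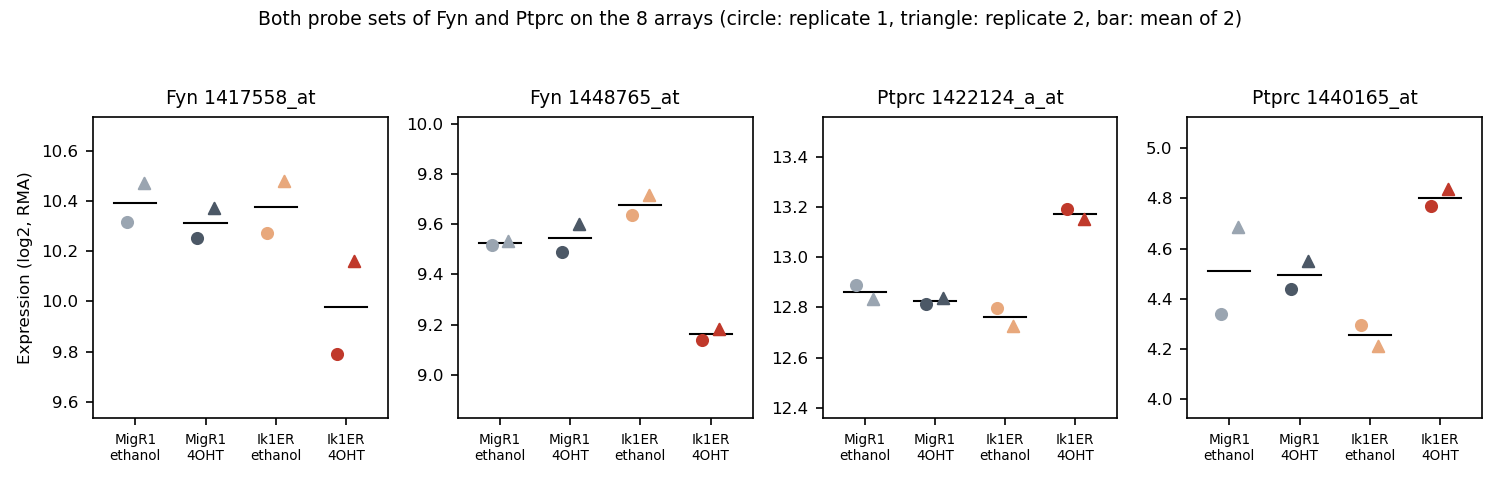
Expression (log2, RMA) of both probe sets of Fyn and of Ptprc in the 4 groups, with a circle for replicate 1, a triangle for replicate 2 and a bar at the mean of the 2 arrays; every panel spans 1.2 log2 units. Both Fyn probe sets read lowest on the 2 Ik1ER 4OHT arrays, at 9.14 and 9.18 for the second, and the bright Ptprc probe set read highest there; the dim Ptprc probe set has a mean of 4.52, below the highest Bacillus control.

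Zap70, the kinase gene next in the order of signalling, was measured by 3 probe sets above the highest Bacillus control, and none was called. The brightest read 10.78 and 10.80 in Ik1ER cells in ethanol and 10.76 and 10.74 in 4OHT, inside the range of the MigR1 arrays (10.69 to 10.84). Its 95% interval in Ik1ER cells ran from -0.22 to 0.15 (difference -0.04, limma, adjusted p = 0.882), and the difference was -0.02 without both Ik1ER replicate 2 arrays. The other probe sets differed by -0.09 and 0.06.

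Csk, the gene of the kinase that holds the Src family kinases inactive, varied more between the arrays of an Ik1ER group than any other member. It read 9.88 and 10.18 in Ik1ER cells in ethanol and 9.72 and 10.28 in 4OHT, but 9.91 to 10.00 in MigR1 cells. The higher value of each Ik1ER group was on its replicate 2 array, the arrays that stood apart in the transferrin receptor control. The part of RNA quality in this spread was not tested. The difference was -0.03 with a 95% interval from -0.43 to 0.37 (limma, adjusted p = 0.954), the widest of the 8 members. It was -0.31 without Ik1ER 4OHT replicate 2 and -0.18 without Ik1ER ethanol replicate 1, but 0.25 without Ik1ER 4OHT replicate 1 and 0.12 without Ik1ER ethanol replicate 2. It was -0.16 without both Ik1ER replicate 2 arrays, and none of these was called.

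Lat encodes the membrane adaptor on which the signalling complex is built. Its probe set read 12.98 and 13.02 in Ik1ER cells in ethanol and 13.23 and 13.26 in 4OHT, and from 13.07 to 13.15 in MigR1 cells. The 2 Ik1ER 4OHT arrays were the highest and the 2 Ik1ER ethanol arrays the lowest of the 8, with MigR1 between them. The difference of 0.24 (SE 0.07, limma, adjusted p = 0.0965) missed the threshold, which it passed with variances moderated by eBayes with trend and robust settings (0.00260) and with dim genes left out (0.0418). Without both Ik1ER replicate 2 arrays it was 0.25 (adjusted p = 0.272).

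The partner adaptor gene Lcp2 showed the same order of groups at a smaller size. Its brightest probe set read 10.31 and 10.46 in Ik1ER cells in ethanol and 10.61 and 10.57 in 4OHT, and from 10.47 to 10.51 in MigR1 cells. The groups in Ik1ER cells did not overlap, but the difference of 0.21 (SE 0.08, limma, adjusted p = 0.203) was not called, nor was the 0.30 found without both Ik1ER replicate 2 arrays (adjusted p = 0.194). The dim second probe set (mean 6.03) differed by 0.10, and its 4OHT arrays overlapped the ethanol arrays.

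Ptpn22, the second phosphatase gene, read 9.59 and 9.63 in Ik1ER cells in ethanol and 9.87 and 9.71 in 4OHT, and from 9.58 to 9.71 in MigR1 cells. Both 4OHT arrays lay above the ethanol arrays of the line, while the lower of them was level with the highest MigR1 array. The difference was 0.18, with a 95% interval from -0.01 to 0.38 (limma, adjusted p = 0.309), and it was 0.28 without both Ik1ER replicate 2 arrays (adjusted p = 0.261). Plcg1, the gene of the phospholipase at the end of this chain, read 9.42 and 9.55 in Ik1ER cells in ethanol and 9.42 and 9.56 in 4OHT. These pairs are nearly the same, and the 95% interval of the difference ran from -0.22 to 0.22 (limma, adjusted p = 0.996), with -0.0059 in place of 0.0019 without both Ik1ER replicate 2 arrays. Its other 2 probe sets (means 5.23 and 4.67) read below the highest Bacillus control and differed by 0.08 and 0.02.

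**Figure D3:**
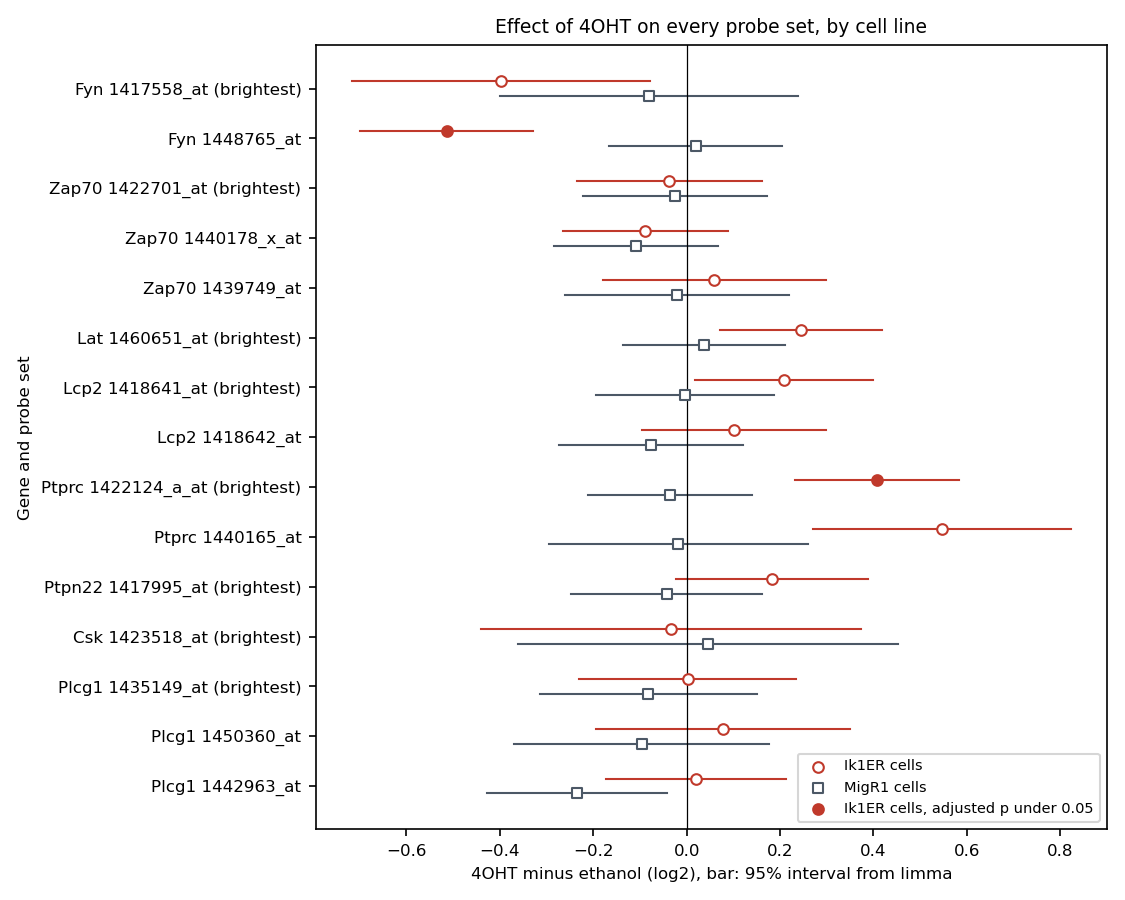
Difference between 4OHT and ethanol (log2, horizontal axis) for each of the 15 probe sets, with circles for Ik1ER cells, squares for MigR1 cells and bars for the 95% interval of limma; filled circles mark an adjusted p under 0.05 over 45037 probe sets. The second Fyn probe set (-0.51) and the brightest Ptprc probe set (0.41) are filled, and every MigR1 square lies between -0.23 and 0.05.

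The vector line shows what 4OHT did without Ik1ER. In MigR1 cells limma called none of the 8 members, with none at an unadjusted p under 0.05, where 0.0055% and 2.12% of all genes passed. The differences of the brightest probe sets ran from -0.08 for Plcg1 to 0.05 for Csk. Csk was the 1 member with both 4OHT arrays above both ethanol arrays (16.7% of all genes), and no member had both below (13.1%). Ptprc differed by -0.04 (95% interval -0.20 to 0.13) and Fyn by -0.08 (-0.39 to 0.23). At the level of probe sets the dimmest one of Plcg1 differed by -0.23 in MigR1 cells, with its mean level below the highest Bacillus control.

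The 4OHT effects of the lines were then compared with each other. Their difference was 0.44 for Ptprc (SE 0.10, limma, adjusted p = 0.0907) and -0.32 for Fyn (SE 0.19, adjusted p = 0.623), and no member was called, where 1.26% of all genes were. At an unadjusted p under 0.05, 1 of the 8 passed, which was Ptprc, against 11.1% of all genes. For the second Fyn probe set the difference was -0.53 (SE 0.11, limma, adjusted p = 0.141), and none of the 15 probe sets was called, against 0.393% of all 45037. The rise of Ptprc and the fall of this Fyn probe set in Ik1ER cells are thus not shown to differ from the effect in MigR1 cells at this threshold. The difference for Ptprc was called with dim genes left out (limma, adjusted p = 0.0467) and with the trend and robust settings (0.00301).

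Without 4OHT no difference between the lines was called in these genes. In ethanol limma called none of the 8 members and none of all 18193 genes, and at an unadjusted p under 0.05 these were none and 5.25%. None of all 45037 probe sets was called either. Among them was the Ikzf1 probe set that differed between the lines, at 10.88 in Ik1ER and 8.13 in MigR1 cells in ethanol. The absence of calls thus does not show that the lines were alike. For the members the differences of Ik1ER from MigR1 cells ran from -0.11 for Lcp2 to 0.11 for Csk. Lat, Lcp2 and Ptprc read lower in both Ik1ER arrays than in both MigR1 arrays, 3 of 8 members against 16.8% of all genes, and no member read higher in both (20.7%). In 4OHT the lines differed in Ptprc, which was 0.35 higher in Ik1ER cells (SE 0.07, limma, adjusted p = 0.0306), as 1 of 8 members called against 5.1% of all genes. At an unadjusted p under 0.05 this was 2 of 8, Ptprc and Fyn, against 17.8%, and the groups did not overlap in 4 members that read higher, Lat, Lcp2, Ptprc and Ptpn22 (22.1% of all genes), and 1 that read lower, Fyn (22.6%). This call was lost when either MigR1 4OHT array, either MigR1 ethanol array or either Ik1ER 4OHT array was left out (adjusted p at most 0.164) and without both Ik1ER replicate 2 arrays (0.0810). Fyn was 0.34 lower (SE 0.13, adjusted p = 0.242), and its second probe set 0.38 lower (SE 0.08, adjusted p = 0.0594), neither of them called. None of the 15 probe sets was, against 2.13% of all probe sets. This comparison shares the Ik1ER 4OHT arrays with the main one.

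Of 50 other genes of the pathway, listed by role with earlier results of these data known, 47 were measured. In Ik1ER cells with 4OHT 16 rose, 4 fell and 27 were not called, where 2.84% of all genes were called higher and 2.51% lower. Their median difference was 0.21, against -0.00386 over all genes. Since the list was made with results known, these shares are no test of it. Without both Ik1ER replicate 2 arrays 8 rose and 1 fell, and with the Ik1ER arrays alone 8 rose and 2 fell. It was 9 and 2 without Ik1ER ethanol replicate 1 and 9 and 3 without Ik1ER ethanol replicate 2. The adaptors held 8 of these 20 calls, with 7 of 14 risen and 1 fallen. They included Tespa1 (0.83, limma, adjusted p = 0.00541), whose product is needed for thymocyte selection, Sit1 (1.02, adjusted p = 0.00797) and Skap1 (0.79, adjusted p = 0.0130), while Shb fell by 0.69 (adjusted p = 0.00522). Among 12 inhibitors 3 rose and none fell, the adaptor genes Sla (0.94, limma, adjusted p = 0.000497) and Sla2 (0.92, adjusted p = 0.00634), whose products promote loss of the receptor, and Dgka (0.91, adjusted p = 0.00276), a kinase gene whose product removes diacylglycerol. Of 11 effectors 3 rose, the protein kinase C theta gene Prkcq (1.07, limma, adjusted p = 0.000784), Rasgrp1 (0.70, adjusted p = 0.0167) and Pik3r1 (0.67, adjusted p = 0.0222). Of 3 Tec and Syk family kinases limma called none, and 1, Txk, had an unadjusted p under 0.05 (1.21, adjusted p = 0.0532). Txk read 4.95 ± 0.45 in Ik1ER cells in ethanol and 6.16 ± 0.56 in 4OHT (SD, n = 2). Its means in MigR1 cells were 5.07 and 5.14. Only its mean in Ik1ER cells with 4OHT lay above the highest Bacillus control. The receptor chains and coreceptors were split, with 3 of 7 risen and 3 fallen, among them Cd8b1 (1.56) and Cd8a (1.84) against Cd3g (-0.69) and Cd3e (-0.43). On removal of any 1 array the calls held for Cd3g, Shb, Tespa1, Sla, Sla2, Dgka and Prkcq, but without both Ik1ER replicate 2 arrays those of Cd3g (adjusted p = 0.0578), Sla2 (0.0738) and Dgka (0.0545) were lost. So were those of Cd3e (0.0578), Sit1 (0.0998), Skap1 (0.123) and Rasgrp1 (0.0989), while Shb, Tespa1, Sla, Prkcq, Cd8a, Cd8b1 and Pik3r1 remained called (limma, adjusted p at most 0.0318). Otherwise the highest adjusted p was 0.0563 for Sit1 and 0.0909 and 0.104 for Cd8b1 and Cd8a, each lost without Ik1ER ethanol replicate 2. It was 0.0884 for Skap1 (lost without that array or Ik1ER 4OHT replicate 1), 0.0988 for Cd3e (Ik1ER 4OHT replicate 1 or Ik1ER ethanol replicate 1), 0.105 for Pik3r1 (Ik1ER 4OHT replicate 2 or Ik1ER ethanol replicate 1) and 0.101 for Rasgrp1 (either Ik1ER ethanol array or Ik1ER 4OHT replicate 2). With p-values adjusted over 45037 probe sets, 1 of 3 other probe sets of Rasgrp1 was called, 1 of 3 of Pik3r1 and 2 of 3 of Sla, whose probe set of mean 10.0 was not (0.85, limma, adjusted p = 0.0916). In MigR1 cells limma called none of the 47, where 0.0055% of all genes were called.

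**Figure D4:**
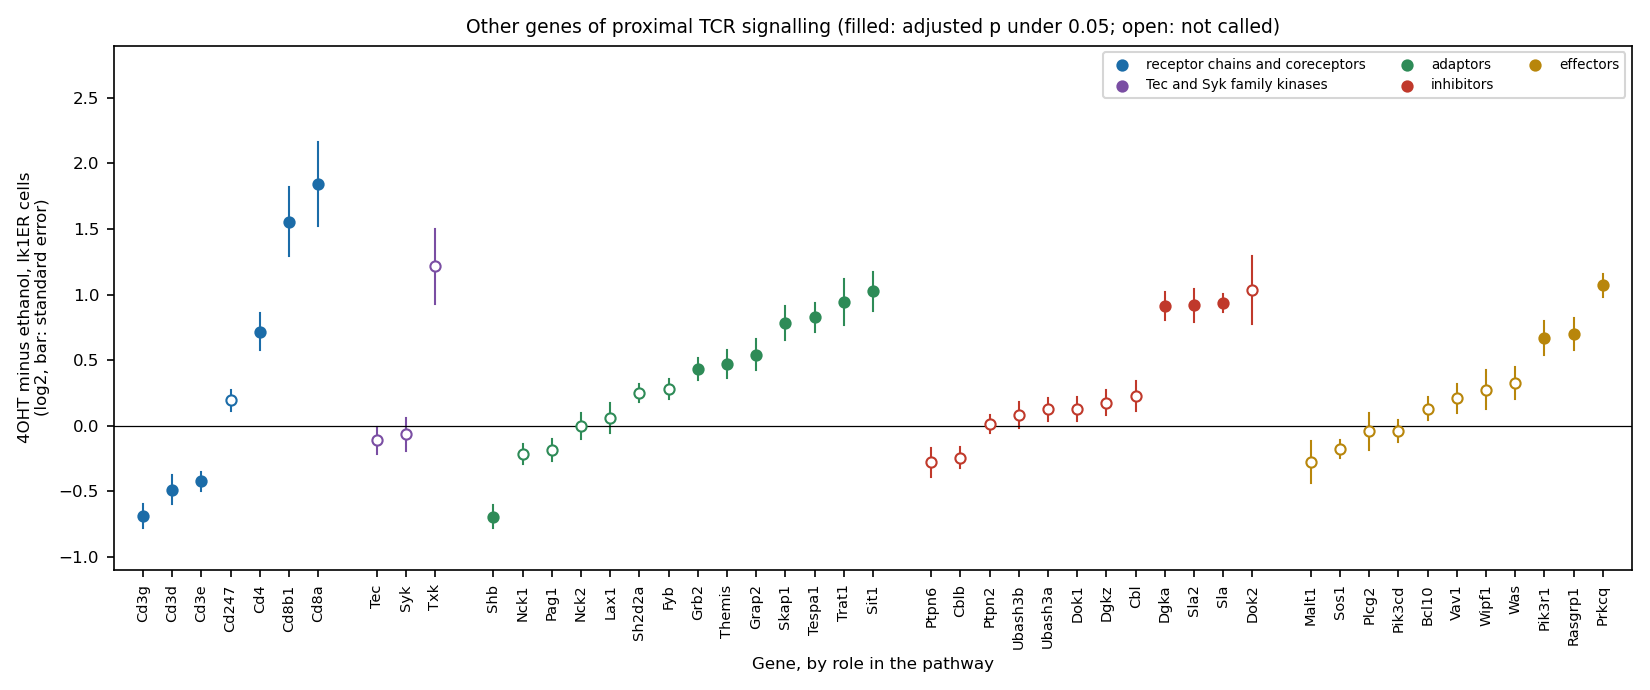
Difference between 4OHT and ethanol in Ik1ER cells (log2, vertical axis) of 47 other genes of the pathway, grouped by role, with bars for the standard error of limma; filled points have an adjusted p under 0.05. Among the adaptors 7 filled points lie above 0 and 1, Shb at -0.69, lies below.

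The genes whose values followed those of Ptprc most closely were Lonrf1 (Pearson r = 0.987) and Inpp5d (r = 0.986), over the 8 arrays and among 10714 other genes. The 8 points fall in 4 groups that share the treatment, and r is given as a description. Both genes were picked for following Ptprc, itself called in Ik1ER cells with 4OHT, on these same arrays. Their rise and calls below are therefore part of that choice and no separate result. Inpp5d encodes the inositol phosphatase SHIP-1, and it rose by 0.81 in Ik1ER cells with 4OHT (SE 0.07, limma, adjusted p = 0.000964), while Lonrf1 rose by 0.75 (SE 0.10, adjusted p = 0.00474). No single array removed ended either call (adjusted p at most 0.0309 for Lonrf1 and 0.0106 for Inpp5d). A dimmer probe set of Inpp5d differed by 0.56 (adjusted p = 0.0705 over 45037 probe sets) and was not called.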

How the data were processed

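Total RNA was labelled with biotin for Affymetrix arrays, per the labels. The values that the authors deposited are log2 expression from RMA, per the submitters' processing notes; its version and the probe set definition are not given in the sources used. RMA removes any global shift of RNA content and compresses changes of dim probe sets.

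Symbols came from GEO's platform annotation: of 45101 probe sets 64 were controls, 34945 had 1 symbol, 932 several and 9160 none listed. For genes other than members, probe sets ending in _x_at stood for the gene only if it had no other. In all 18193 genes were tested with limma 3.58.1 (lmFit on the 4 group means of all 8 arrays, then eBayes, 4 residual degrees of freedom) in R 4.3.3. Single probe sets were fitted over all 45037 that are no control. Benjamini-Hochberg adjustment ran within each of 5 contrasts, and an adjusted p under 0.05 was a call. The fit was tested on simulated data.

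Members, lists, naming rule and alternatives were chosen with earlier results of these data known. Of each role the text names up to 4 called genes of smallest p, and Txk, chosen after its value was seen. The 2 genes most like Ptprc are those of highest Pearson correlation among genes with a mean above 5.27. Listed genes with no probe set of 1 symbol are not analysed here.

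The alternatives were a replicate block, a filter on dim genes, trend and robust eBayes, median centring, repeated quantile normalization, the mean over a gene's probe sets, only the arrays compared, and arrays left out.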

Additional observations from a re-analysis of the deposited data

Results flagged for a closer look

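The 4OHT effect differed between Ik1ER and MigR1 cells in 5 of the 47 other pathway genes measured, against 1.26% of all genes. Since the list was made with earlier results of these data known, this share is no test of it. By the test of the difference itself (limma, 8 arrays) the genes included the receptor chain gene Cd3g (-0.70, adjusted p = 0.0490) and the adaptor gene Tespa1 (0.91, adjusted p = 0.0384). The inhibitor genes Dgka (0.92, adjusted p = 0.0311) and Sla (0.94, adjusted p = 0.00627) and the effector gene Prkcq (1.15, adjusted p = 0.00780) had such differences as well. Those of Sla and Prkcq were called with each array left out (adjusted p at most 0.0426 and 0.0498). That of Cd3g was lost when any array other than Ik1ER 4OHT replicate 1 was left out, that of Tespa1 when any other than Ik1ER 4OHT replicate 2 was, and that of Dgka when any of the 8 was (adjusted p at most 0.197, 0.168 and 0.116). Without both Ik1ER replicate 2 arrays only that of Sla was called (adjusted p = 0.0434), with Prkcq at 0.0547.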

How the results depend on the processing

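Values given one by one for the members and named genes were recomputed under each alternative. Of these 842 recomputed values, 733 kept their direction and their side of the threshold, 78 lost a call, 13 gained one and 18 changed sign. For the other 6 members in the other 4 contrasts 27 of 384 changed sign, none of them called. The filter on dim genes kept the 10918 genes above the median of all probe sets. The alternatives for the other pathway genes were added after the data were seen. Unless stated, the cause of a change was not tested. With 2 arrays per group, leaving out an array takes 1 of 4 residual degrees of freedom.

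In Ik1ER cells with 4OHT the genes called numbered 973, but 412 with only the arrays compared, 388 without both Ik1ER replicate 2 arrays and 439 to 827 with each array left out. Of the 8 members 1 was called, 2 with trend and robust settings, the mean over probe sets or the filter on dim genes, 0 with only the arrays compared or without both Ik1ER replicate 2 arrays, and 0 to 2 with each array left out. In MigR1 cells 1 gene was called, 0 with the mean over probe sets, the dim filter, only the arrays compared, repeated quantile normalization, the replicate block or without both Ik1ER replicate 2 arrays, and 0 to 1 with each array left out. The difference of the 4OHT effects had 229 genes called, 439 with trend and robust settings, 100 without both Ik1ER replicate 2 arrays and 51 to 269 with each array left out, and 0 members, or 1 with trend and robust settings or the dim filter. Between the lines in 4OHT 928 genes were called, 429 with only the arrays compared, 594 without both Ik1ER replicate 2 arrays and 242 to 812 with each array left out, and 1 member, or 0 with only the arrays compared or without both Ik1ER replicate 2 arrays and 0 to 1 with each array left out. In ethanol 0 genes were called between the lines, and 1 with the mean over probe sets.

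No value that changed sign was called, and the largest were of Csk, at 0.25 in Ik1ER cells without Ik1ER 4OHT replicate 1 and -0.25 between the lines in 4OHT without Ik1ER 4OHT replicate 2 or without both Ik1ER replicate 2 arrays. Fyn between the lines in ethanol was 0.066 with the mean over probe sets, 0.028 with median centring and -0.12 to 0.085 with each array left out. Plcg1 in Ik1ER cells was -0.0087 with median centring, -0.013 with repeated quantile normalization, -0.0059 without both Ik1ER replicate 2 arrays and from -0.071 to 0.074 with each array left out, and its second probe set was -0.0088 without both. With each array left out, Csk in Ik1ER cells ranged from -0.31 to 0.25, the dimmest Plcg1 probe set from -0.053 to 0.093, the dimmest Zap70 probe set from -0.0085 to 0.13, and in MigR1 cells the second Fyn probe set from -0.035 to 0.074 and the dim Ptprc probe set from -0.19 to 0.16.

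Same-numbered arrays deviated together within the lines (correlation 0.448 in Ik1ER and 0.269 in MigR1 cells) and between them by -0.0687 to 0.102. Only 2 numbers exist and the labels do not say that they pair arrays. With the replicate block, 1151 genes and 2 of the 8 members, Ptprc (adjusted p = 0.0181) and Fyn (adjusted p = 0.0387), were called by limma in Ik1ER cells with 4OHT, 335 genes and no member for the difference of the effects, and 10 in place of 5 of the other pathway genes there.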
